A study of Homo sapiens with 4 samples.

Results

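Expression of 8 genes known from naive human pluripotency was followed in single cells of human embryonic stem cells (hESC) and of blastoids made from them. The genes were KLF4, KLF5, TFCP2L1, SUSD2, FGF4, NLRP7, VENTX and ZFP42, 8 of the 23364 genes listed in any of the 4 count tables. They were picked by name with their values known, because some lay higher in blastoid cells than in hESC and others did not, and because several lay higher in those blastoid cells that held core pluripotency transcripts. The values of those contrasts are therefore given as a description without a test. Of the 8, 7 are listed in the table of hESC 1, which does not list NLRP7, and all 8 in the other 3 tables. NLRP7 was counted as 0 in hESC 1.

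Transcripts were counted as unique molecular identifiers (UMIs, tags that let copies of a molecule be counted once) in 10x Chromium 3′ libraries. The established human embryonic stem cell line KhES1 was grown on Matrigel in mTeSR-1 medium (hESC 1 and hESC 2), a condition that keeps the primed state. Blastoids, stem cell aggregates meant to resemble a blastocyst, were made from KhES1 by aggregation, embedding in a PNIPAAm-β-PEG hydrogel and culture in iBlastoid medium (blastoid 3 and blastoid 4). The titles of all 4 samples carry the same day while the tables of the blastoids carry a later one, so the groups follow the sample descriptions. All samples derive from 1 line, and the labels do not say whether the 2 samples of a group were separate cultures. The spread between them may therefore be technical.

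Naive pluripotency is the state of the early epiblast of the blastocyst, and primed pluripotency is the later state that conventional human stem cell culture resembles. KLF4, KLF5 and TFCP2L1 are transcription factors of the naive network, and KLF5 and TFCP2L1 also act in trophectoderm and other epithelia. ZFP42 (REX1) is a zinc finger protein of pluripotent cells. VENTX is a homeobox factor, SUSD2 is a surface protein used to sort naive cells, FGF4 is a ligand that signals through FGF receptors and ERK, and NLRP7 is a cytoplasmic protein of oocytes and early embryos whose maternal loss is linked to hydatidiform mole.

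The 8 genes lie on 8 chromosomes. In RefSeq coordinates (GRCh38.p14) TFCP2L1 spans chr2:121216587-121285202, ZFP42 chr4:187995771-188005246, KLF4 chr9:107484852-107489769 and VENTX chr10:133237855-133241928. FGF4 spans chr11:69771022-69775341, KLF5 chr13:73054976-73077538, NLRP7 chr19:54923515-54966243 and SUSD2 chr22:24181487-24189106. RefSeq promoter entries were matched for 6 of the genes, with 7 entries since KLF5 has 2 start sites. The 250 bases before the start site are shown for KLF4 and ZFP42, which lay on opposite sides of the hESC level in whole blastoid samples, and for NLRP7, which had the fewest UMIs in hESC and whose entry begins at a start site inside the gene. Capitals mark the GC box (GGGCGG, either strand), the letters bound by SP and KLF factors.
KLF4, chr9:107489770-107490019, minus strand: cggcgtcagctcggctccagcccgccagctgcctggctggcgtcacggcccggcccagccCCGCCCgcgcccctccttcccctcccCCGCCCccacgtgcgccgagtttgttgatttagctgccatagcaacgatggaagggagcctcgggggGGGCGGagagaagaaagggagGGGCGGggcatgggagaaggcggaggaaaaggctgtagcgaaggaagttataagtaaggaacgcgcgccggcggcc
ZFP42, chr4:187995521-187995770, plus strand: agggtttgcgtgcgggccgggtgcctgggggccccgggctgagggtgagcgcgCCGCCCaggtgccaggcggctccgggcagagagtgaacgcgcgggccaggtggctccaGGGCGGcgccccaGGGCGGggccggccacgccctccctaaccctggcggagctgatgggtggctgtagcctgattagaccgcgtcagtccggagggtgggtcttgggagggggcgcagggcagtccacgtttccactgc
NLRP7, chr19:54947531-54947780, minus strand: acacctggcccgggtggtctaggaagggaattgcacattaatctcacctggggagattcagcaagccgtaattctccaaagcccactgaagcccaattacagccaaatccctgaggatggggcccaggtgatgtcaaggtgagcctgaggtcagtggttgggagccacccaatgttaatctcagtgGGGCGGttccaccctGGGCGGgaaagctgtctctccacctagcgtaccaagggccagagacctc
The KLF4 stretch holds 4 GC boxes, ZFP42 3 and NLRP7 2. Over the whole 300-base entries TFCP2L1 holds 5, VENTX 2 and the KLF5 entries 0 and 2, while 45% of all 35116 promoters of that length hold at least 1. The CACCC box (CCACCC) was found 3 times in NLRP7, 2 times in ZFP42 and 1 time in VENTX, and in 34.3% of all promoters. None overlapped a GC box. The octamer ATGCAAAT (1.77% of all promoters) and the AP-1 site TGANTCA (7.71%) were in none of the 7 entries. A match of letters is a description of these windows only.

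Cells with at least 500 genes were analysed, 2265 and 3175 in hESC 1 and 2 and 2289 and 1951 in blastoid 3 and 4, with a median of 5793, 4996, 6232 and 8828 UMIs. Samples of a group shared barcodes, 1317 between the hESC tables and 1035 between the blastoid tables, of which 23 and 0 were kept in both. Blastoid cells were grouped by counts of detected markers, so the groups are ranges and not cell types. Pluripotent-marker cells had at least 3 of POU5F1, SOX2, NANOG, TDGF1 and PRDM14 and numbered 46 in blastoid 3 and 92 in blastoid 4 (2.01% and 4.72% of cells). Of the others, 336 and 431 had at least 3 of 8 epithelial markers and fewer than 3 of 8 mesenchymal ones. Another 1419 and 1028 showed the reverse, 109 and 253 had 3 of both kinds (double-marker cells), and 379 and 147 had neither (unclassed cells). Many cells lay near a limit, with exactly 2 or 3 epithelial markers in 238 and 73 cells of blastoid 3 and in 166 and 50 of blastoid 4. More lay near the mesenchymal limit, with exactly 2 or 3 markers in 327 and 294 cells of blastoid 3 and in 289 and 293 of blastoid 4. POU5F1, a core pluripotency factor, was at 999 and 945 CPM (UMI counts per 1e6 UMIs of the cells summed) in the pluripotent-marker cells. It was at 1154 and 1141 CPM in all hESC, and at 27.7 and 27.2 CPM in the other blastoid cells. POU5F1 was itself used for the grouping, so these values describe the groups and are no check of them.

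In whole blastoid samples the members parted in 2 directions. KLF4, KLF5, SUSD2, FGF4 and NLRP7 lay above hESC in both samples, ZFP42 lay below, and TFCP2L1 and VENTX overlapped. The share of all genes whose samples lie apart in this way is not given, so nothing is read from this sorting. By fitted log2 fold change 5 of 8 members were above 0 and 3 below. Of 16368 genes tested 52.8% lay above 0 and 47.2% below, so the count is near that of all genes. Of all genes 27.3% were called higher and 23% lower (edgeR, adjusted p under 0.05). The median was 2.57 for the members and 0.05 for all genes tested.

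KLF5 was at 0.964 and 1.76 CPM in hESC 1 and 2 and at 13.5 and 19.1 CPM in blastoid 3 and 4. Its log2 fold change was 3.43 ± 0.33 (edgeR estimate ± SE, n = 2 samples a group). KLF4 was at 0.815 and 0.754 CPM in hESC and at 5.25 and 5.29 CPM in blastoids, a log2 fold change of 2.61 ± 0.30. For both KLF factors the lowest blastoid sample was several times the highest hESC sample.

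SUSD2 was at 0.890 and 0.503 CPM in hESC and at 4.73 and 9.48 CPM in blastoids (log2 fold change 3.25 ± 0.50), with blastoid 4 the higher. FGF4 was at 0.519 and 0.566 CPM in hESC and at 4.79 and 2.32 CPM in blastoids (2.54 ± 0.46), here with blastoid 3 the higher. The 2 blastoid samples thus took opposite order for the surface protein and the ligand. NLRP7 had 0 and 3 UMIs in hESC 1 and 2, where the 0 allows up to 0.273 CPM (upper limit of the exact 95% interval). In blastoid 3 and 4 it had 18 and 43 UMIs, or 1.18 and 2.37 CPM. The ratio of the summed counts was 17.9, with an exact 95% counting interval of 5.85 to 89.3.

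ZFP42 was at 83.0 and 87.5 CPM in hESC and at 30.8 and 30.1 CPM in blastoids, a log2 fold change of -1.62 ± 0.13. VENTX was at 3.48 and 5.22 CPM in hESC and at 3.61 and 2.21 CPM in blastoids (-0.73 ± 0.32), and TFCP2L1 at 1.63 and 1.70 against 1.25 and 2.26 CPM (-0.03 ± 0.40). For these last 2 genes the groups overlapped.

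**Figure D1:**
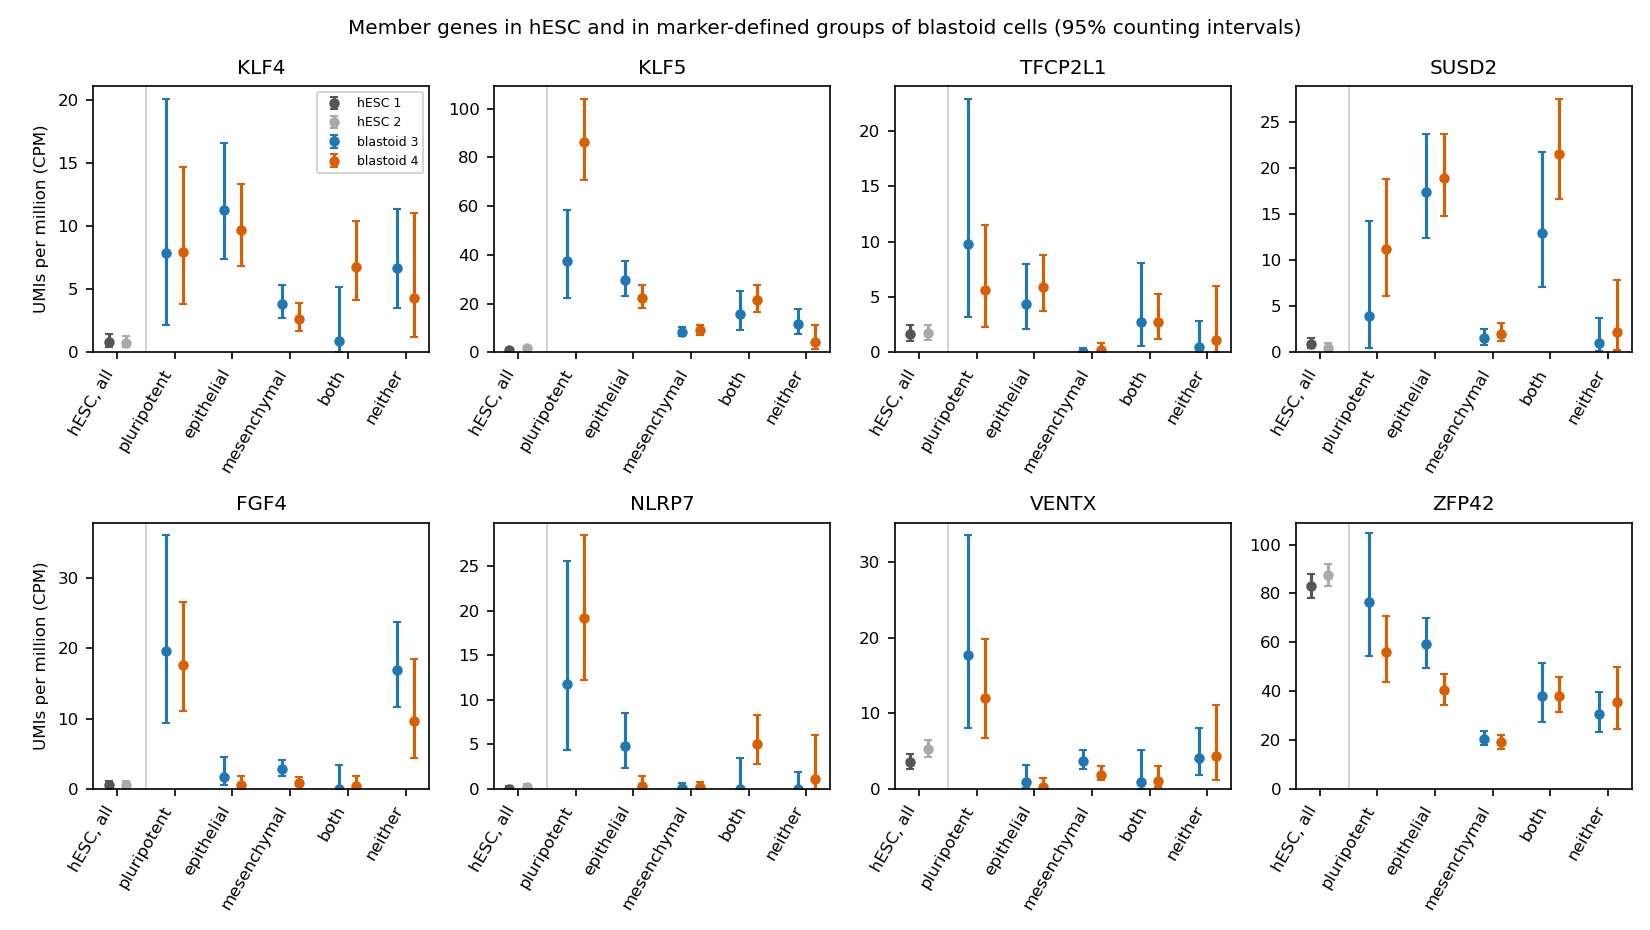
CPM of each gene in all hESC and in 5 marker-defined groups of blastoid cells, with 95% exact counting intervals and each y axis starting at 0. SUSD2 stood highest where epithelial markers were found, FGF4 in pluripotent-marker and unclassed cells, and ZFP42 in hESC.

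A whole sample mixes few pluripotent-marker cells with many others, and the members differed in which cells held their UMIs. Pluripotent-marker cells held 3.35% and 6.90% of all UMIs of blastoid 3 and 4, epithelial-marker cells 15.1% and 21.6%, and mesenchymal-marker cells 61.6% and 49.995%. For TFCP2L1 the epithelial-marker cells held 52.6% of 19 UMIs and 56.1% of 41 UMIs, and the mesenchymal-marker cells 0% and 4.88%. For SUSD2 the epithelial-marker cells held 55.6% and 43.0% and the double-marker cells a further 19.4% and 37.2%. For KLF5 the pluripotent-marker cells held 9.22% in blastoid 3 and 31.2% in blastoid 4. For FGF4 they held 13.7% and 52.4%, while unclassed cells held 45.2% and 21.4%. In blastoid 3 the mesenchymal-marker cells held another 35.6% of the FGF4 UMIs, below their share of all UMIs. For VENTX the mesenchymal-marker cells held 63.6% and 42.5%, near their share of all UMIs, and the pluripotent-marker cells 16.4% and 37.5%, several times theirs.

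**Figure D2:**
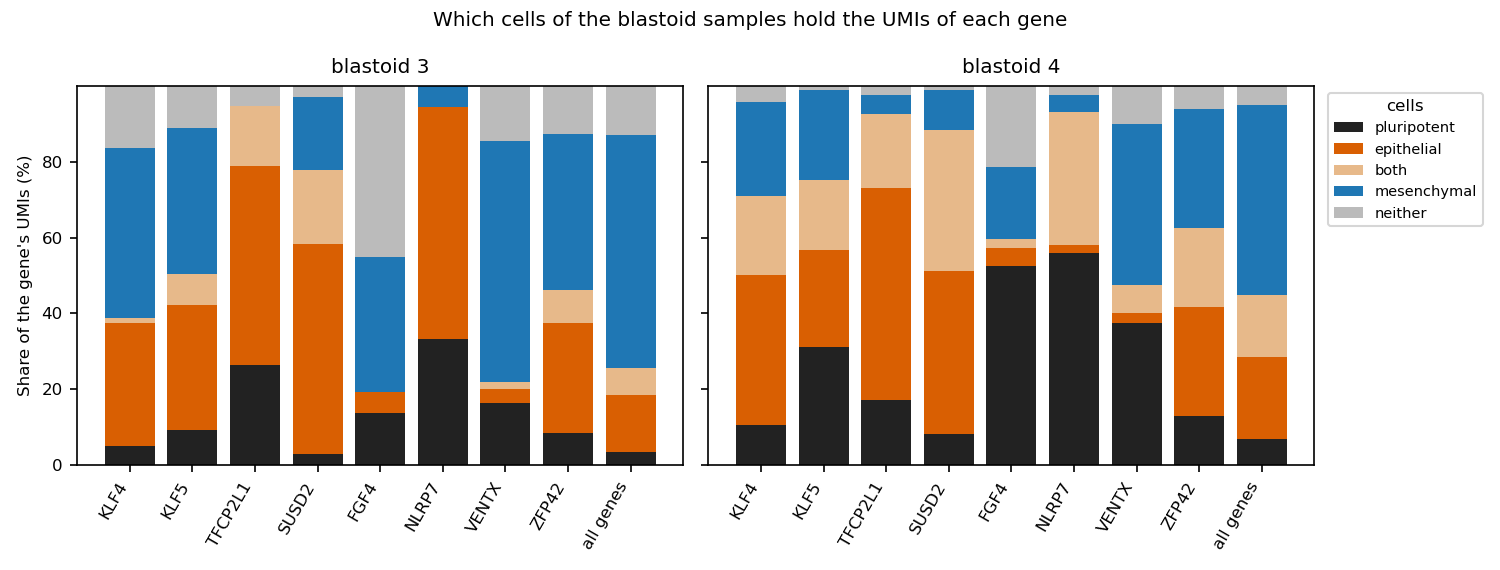
Share (%) of the UMIs of each gene, and of all genes, that came from each group of blastoid cells, with 1 panel per sample and bars adding to 100%. TFCP2L1 and SUSD2 draw mainly on epithelial-marker and double-marker cells, and the share of pluripotent-marker cells in FGF4, NLRP7 and VENTX exceeds their 3.35% and 6.90% of all UMIs.

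Within the blastoids all 8 members had a fitted level above that of the other cells in the pluripotent-marker cells (8 of 8, where 44.8% of 14626 genes tested lay above 0 and 55.2% below; median log2 fold change 2.23 against -0.09 for all genes). SUSD2 and KLF4 are counted there with values within 2 SE of 0. Of all genes 13.8% were called higher and 16.3% lower. The members were chosen on this contrast, so nothing is read from the count. These cells were also deeper, with a median of 11100 and 13788 UMIs against 6172 and 8645 in the others, and CPM corrects for the total but not for how depth enters the choice of cells. NLRP7 was at 11.8 and 19.2 CPM in pluripotent-marker cells against 0.815 and 1.13 CPM in the others (log2 fold change 4.02 ± 0.55), FGF4 at 19.6 and 17.6 against 4.28 and 1.18 CPM (3.07 ± 0.44), and VENTX at 17.7 and 12.0 against 3.13 and 1.48 CPM (2.79 ± 0.50). Values overlapped between the groups for SUSD2 only. The share of all genes without overlap is not given, so nothing is read from that. KLF5 was at 37.3 and 86.3 against 12.7 and 14.1 CPM (2.31 ± 0.21), TFCP2L1 at 9.82 and 5.59 against 0.951 and 2.01 CPM (2.15 ± 0.68), and ZFP42 at 76.6 and 55.9 against 29.2 and 28.2 CPM (1.17 ± 0.19). KLF4 and SUSD2 differed least, KLF4 at 7.85 and 7.99 against 5.16 and 5.09 CPM (0.66 ± 0.49, from 14 UMIs in pluripotent-marker cells). SUSD2 was at 3.93 and 11.2 against 4.76 and 9.36 CPM (0.18 ± 0.45), overlapping, and without blastoid 4 its log2 fold change was -0.24. The level of KLF5 also differed between the blastoid samples, with 95% counting intervals of 22.5 to 58.2 CPM in the 46 cells of blastoid 3 and 70.8 to 104 CPM in the 92 cells of blastoid 4.

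Around the limit of 3 markers the members differed, and so did the samples. In blastoid 3 and 4, 56 and 40 cells had 2 of the 5 markers, and 14 and 29 had 3. From 2 to 3 markers KLF5 went from 27.0 to 88.3 CPM in blastoid 4, but only from 28.6 to 36.9 CPM in blastoid 3 (14 and 5 UMIs). NLRP7 went from 2 to 8 UMIs in blastoid 4 (3.86 to 21.4 CPM) and from 0 to 1 in blastoid 3, and TFCP2L1 from 1 to 4 UMIs in blastoid 4 and from 1 to 0 in blastoid 3. The step of these 3 genes from 2 to 3 markers thus rested on blastoid 4. In the 24 cells of blastoid 3 with 4 markers, NLRP7 had 5 UMIs (18.3 CPM) and TFCP2L1 4 UMIs (14.6 CPM). In its 8 cells with 5 markers NLRP7 had 0 UMIs and TFCP2L1 had 1. KLF5 was at 36.5 and 40.0 CPM in these 2 sets of cells. From 2 to 3 markers VENTX went from 0 to 5 UMIs in blastoid 4 and from 12.2 to 22.1 CPM in blastoid 3 (6 and 3 UMIs). FGF4 showed no rise there, at 24.5 and 22.1 CPM in blastoid 3 and at 11.6 and 10.7 CPM in blastoid 4. With 1 marker it was at 15.4 CPM in blastoid 3 and 2.76 CPM in blastoid 4, and with none at 1.56 and 0.446 CPM. ZFP42 was at 32.6 and 44.3 CPM in blastoid 3 and at 54.0 and 48.2 CPM in blastoid 4.

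Set against hESC that passed the same limit of 3 markers (1467 and 1769 cells), the pluripotent-marker cells of the blastoids lay above for 7 members and below for ZFP42, where 49.2% of 13651 genes tested had a fitted log2 fold change above 0 and 50.8% below. Of all genes 12.1% were called higher and 10.4% lower. The comparison shares its samples with both contrasts above. KLF5 was at 0.921 and 2.02 CPM in these hESC against the 37.3 and 86.3 CPM given above, a log2 fold change of 5.46 ± 0.35. The log2 fold changes of FGF4 (4.82 ± 0.48, from 0.553 and 0.648 CPM), SUSD2 (3.70 ± 0.63, from 0.737 and 0.567 CPM) and KLF4 (3.27 ± 0.61, from 0.829 and 0.729 CPM) were all above 3. SUSD2 rested on 2 UMIs in blastoid 3 and 14 in blastoid 4, and its log2 fold change was 2.40 without blastoid 4. NLRP7 had 0 and 3 UMIs in these hESC and 6 and 24 in the blastoid cells, a ratio of 132 (exact 95% interval 41.0 to 675). TFCP2L1 was at 1.66 and 1.94 CPM in hESC (1.86 ± 0.57, from 5 and 7 UMIs in the blastoid cells). VENTX was at 3.13 and 4.94 CPM (1.69 ± 0.42, from 9 and 15 UMIs). For TFCP2L1 the 95% counting interval in blastoid 4 (2.25 to 11.5 CPM) overlapped those of hESC 1 (0.983 to 2.62) and hESC 2 (1.25 to 2.89). The share of all genes whose samples lie apart here is not given, so nothing is read from that. ZFP42 was at 83.3 and 92.2 CPM in hESC and 76.6 and 55.9 CPM in the blastoid cells (-0.54 ± 0.18).

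Per cell, at least 1 of the 7 members other than ZFP42 was detected in 60.9% and 84.8% of pluripotent-marker cells of blastoid 3 and 4, against 5.59% and 7.12% of the hESC with 3 markers, whose median was 6903 and 6493 UMIs against 11100 and 13788 in the blastoid cells. After each cell was thinned to 2000 UMIs, KLF5 was detected in 6.52% of 46 cells (exact 95% interval 1.37% to 17.9%) and in 18.7% of 91 cells (11.3% to 28.2%), against 0.353% and 0.297% in hESC. Unthinned, these shares were 32.6%, 56.5%, 0.682% and 1.36%. Thinned ZFP42 was in 10.9% and 9.89% of blastoid cells and in 16.1% and 16.1% of hESC. Unthinned, its order was the opposite (58.7% and 53.3% against 42.9% and 45.4%), so only the CPM was read. The other 6 members were left with 0 to 3 blastoid cells a sample, and no order was read from them. In mesenchymal-marker cells (median 6185 and 8400 UMIs) the unthinned shares were 5.29% and 7.20% for KLF5, 11.8% and 14.2% for ZFP42 and 0.0705% and 0.195% for NLRP7. The part of free RNA in these shares was not tested.

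No shared pattern from cell to cell could be read at this depth. Pearson's r was taken across unthinned pluripotent-marker cells for the 28 pairs of members. It ran from -0.18 to 0.35 in blastoid 3 (median 0.01) and from -0.20 to 0.18 in blastoid 4 (median -0.05). The counts are sparse and the cells of a sample share a library, so these values are a description.

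The comparison of epithelial-marker with mesenchymal-marker cells was not used to choose the members, and none of them is among its markers. Earlier results of these data were known, however, when the members and the marker sets were chosen. The p-values below are therefore not those of an independent test. KLF4, KLF5, TFCP2L1, SUSD2 and ZFP42 were higher in epithelial-marker cells and VENTX was lower. These are 5 and 1 of 7 members tested, where 25.2% of 14165 genes were called higher and 24.1% lower, and the median log2 fold change was 1.67 for the members and -0.02 for all genes. The test was edgeR's quasi-likelihood test with Benjamini-Hochberg adjustment over all genes and the sample as a block, on 2 sums a group.

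SUSD2 was at 17.4 and 18.9 CPM in epithelial-marker cells of blastoid 3 and 4 and at 1.49 and 1.98 CPM in mesenchymal-marker cells, and rose by a log2 fold change of 3.49 ± 0.30 (edgeR adjusted p = 2.36e-29). TFCP2L1 was at 4.35 and 5.87 CPM against 0 and 0.221 CPM, or 33 against 2 UMIs. The ratio was 48.9 (exact 95% interval 12.5 to 421; edgeR adjusted p = 2.42e-14). TFCP2L1 was thus near the limit of counting in the mesenchymal-marker cells, where 0 UMIs allow up to 0.393 CPM in blastoid 3 (exact 95% limit). SUSD2 was low there but counted, with 14 and 18 UMIs.

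KLF4 was at 11.3 and 9.70 CPM against 3.84 and 2.65 CPM (log2 fold change 1.84 ± 0.32, edgeR adjusted p = 3.53e-08), and KLF5 at 29.6 and 22.5 against 8.42 and 9.04 CPM (1.67 ± 0.20, edgeR adjusted p = 1.27e-16). ZFP42 was at 59.1 and 40.3 against 20.6 and 19.0 CPM (1.43 ± 0.15, edgeR adjusted p = 7.42e-20). In mesenchymal-marker cells the KLF factors were lower but still above the 0.754 to 1.76 CPM of whole hESC samples. The value of ZFP42 was below that of hESC in every blastoid group. In pluripotent-marker cells of blastoid 3, however, the 95% counting interval of ZFP42 (54.4 to 105 CPM) covered both hESC values.

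VENTX was at 0.869 and 0.255 CPM in epithelial-marker cells and at 3.73 and 1.87 CPM in mesenchymal-marker cells, or 3 against 52 UMIs. The ratio was 0.171 (exact 95% interval 0.0342 to 0.528; edgeR adjusted p = 0.00532). That call was not made by DESeq2, whose adjusted p was 0.334. FGF4 was at 1.74 and 0.510 against 2.77 and 0.882 CPM (-0.58 ± 0.66, edgeR adjusted p = 0.496) and was not called. NLRP7 had 11 and 1 UMIs in epithelial-marker and 1 and 2 in mesenchymal-marker cells and did not pass the filter on low counts. Its UMIs sat in few cells: the 11 in blastoid 3 came from 5 cells, and 15 UMIs in the double-marker cells of blastoid 4 came from 7 cells with up to 6 in 1 cell.

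**Figure D3:**
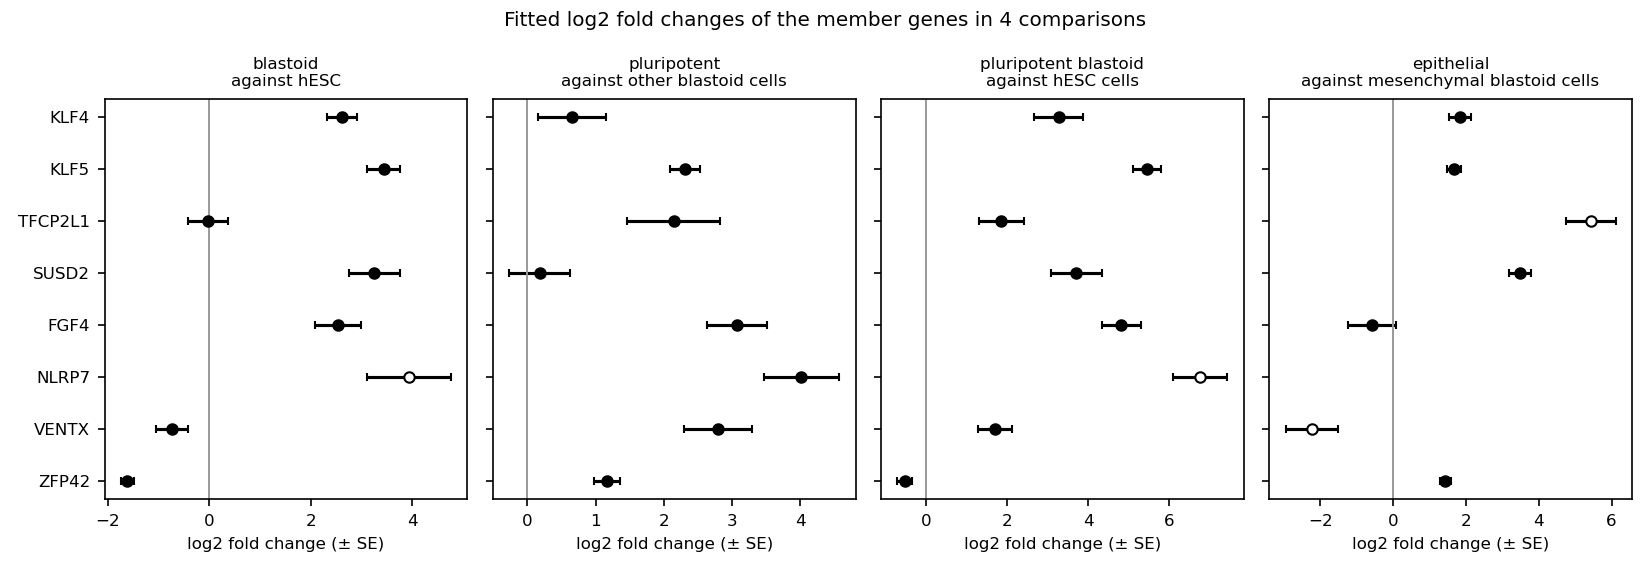
Fitted log2 fold change ± SE of each member in the 4 comparisons, first-named cells over second-named cells. Open circles have at most 3 UMIs in either group, so their position depends on the prior count of the fit; NLRP7 was not tested in the last panel, where SUSD2 and TFCP2L1 lie highest and VENTX lowest.

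The order of the cell groups differed by member. SUSD2 was highest in epithelial-marker (17.4 and 18.9 CPM) and double-marker cells (12.9 and 21.5 CPM), whose counting intervals overlapped in both samples, and lowest in unclassed cells (1.02 and 2.16 CPM), mesenchymal-marker cells and hESC. KLF5 ran from pluripotent-marker cells through epithelial-marker and double-marker cells (15.7 and 21.5 CPM) to mesenchymal-marker cells. Neighbours in that order overlapped in blastoid 3, while in blastoid 4 the pluripotent-marker cells stood clear of all others. Unclassed cells had no fixed place for KLF5. They were at 11.8 CPM in blastoid 3, above the mesenchymal-marker cells, and at 4.31 CPM (4 UMIs) in blastoid 4, below them. FGF4 was highest in pluripotent-marker cells and in unclassed cells (16.9 and 9.70 CPM), which overlapped, and double-marker cells held 0 and 1 UMIs.

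The FGF4 cells outside the pluripotent-marker group often carried transcripts of early mesoderm. The markers used here, TBXT, MIXL1, MESP1 and MSGN1, transcription factors of the primitive streak and nascent mesoderm, were chosen after the FGF4 values were seen. Outside the pluripotent-marker cells, 38 cells of blastoid 3 and 14 of blastoid 4 had an FGF4 UMI, of which 19 and 5 were unclassed and 15 and 6 mesenchymal-marker cells. MESP1 was detected in 81.6% and 35.7% of them, against 5.76% and 4.07% of the 2205 and 1845 cells without FGF4. MSGN1 was in 44.7% and 64.3% against 5.67% and 2.93%, and TBXT in 28.9% and 14.3% against 1.54% and 0.921%. MIXL1 was in 26.3% against 3.22% in blastoid 3, but in 1 of 14 cells in blastoid 4 (7.14%, exact 95% interval 0.181% to 33.9%, against 2.76%). POU5F1 was in 60.5% and 64.3% against 8.75% and 11.8%. VTCN1, an epithelial marker of amnion and trophoblast, was in 0 of the 38 and 14 cells, which allows up to 9.25% and 23.2% (upper limit of the exact 95% interval), against 8.89% and 24.0%. The FGF4 cells had a median of 9048.5 and 8929.5 UMIs, the cells without 6141 and 8639.

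Turned around, 92 and 25 cells outside the pluripotent-marker group had at least 2 of the 4 mesoderm markers. Their FGF4 level was 54.2 and 30.1 CPM, against 1.58 and 0.663 CPM in the rest. VENTX was at 14.6 and 3.34 CPM (11 and 1 UMIs) against 2.51 and 1.45 CPM, and TFCP2L1 had 0 and 1 UMIs there. FGF4 was thus high both in pluripotent-marker cells and in cells outside that group with mesoderm markers. These sets are not shown to be separate kinds of cell, since POU5F1 was also frequent in the FGF4 cells outside the pluripotent-marker group.

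**Figure D4:**
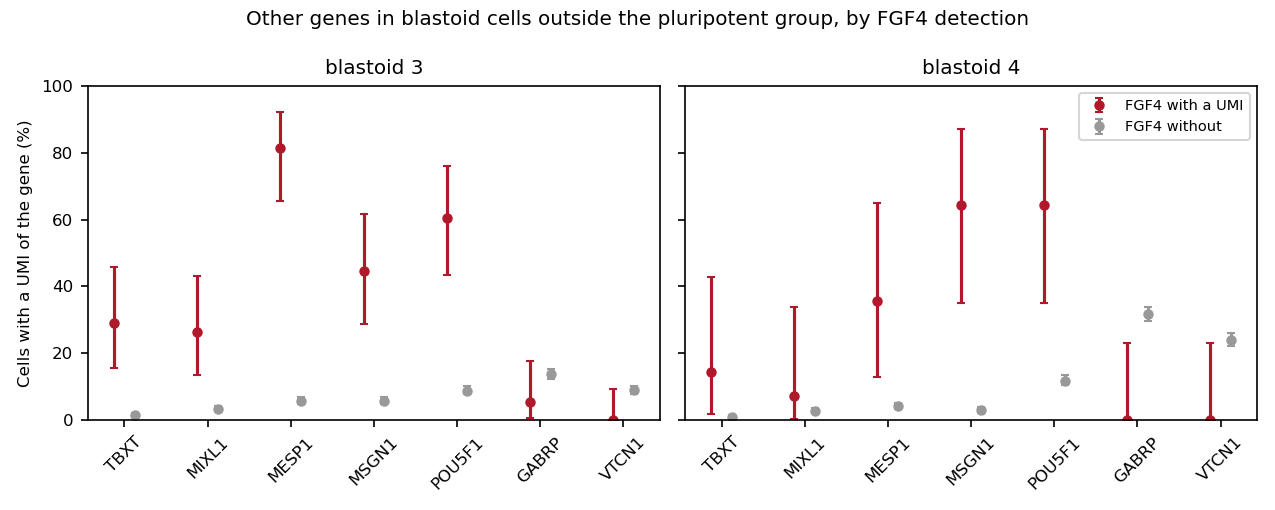
Share (%) of blastoid cells outside the pluripotent-marker group with a UMI of the named gene, for cells with an FGF4 UMI (38 and 14) and without (2205 and 1845), with exact 95% intervals. MESP1, MSGN1, TBXT and POU5F1 were detected more often beside FGF4 in both samples, MIXL1 with intervals apart in blastoid 3 only, and VTCN1 was not detected beside FGF4.

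Other genes of the naive state were read from the tests, as were listed genes of the other pathways. Of all genes, 27.3% were called higher and 23% lower in whole blastoid samples. The shares were 13.8% and 16.3% in pluripotent-marker against other blastoid cells, and 12.1% and 10.4% in pluripotent-marker cells against hESC. In epithelial-marker against mesenchymal-marker cells they were 25.2% and 24.1%. Of 26 other naive genes listed, 24 are in the tables and 18 were tested in whole samples, where 6 were higher and 10 lower in blastoids (median log2 fold change -0.88). TFAP2C, an AP-2 factor of naive cells and trophectoderm, rose by 1.66 ± 0.19 (edgeR adjusted p = 0.000403), from 7.34 and 5.91 to 21.7 and 24.0 CPM. TET2, a 5-methylcytosine dioxygenase, rose by 1.84 ± 0.21 (edgeR adjusted p = 0.000349). TBX3, a T-box factor, had 0 UMIs in both hESC samples and 328 and 239 CPM in blastoids. DPPA4, a chromatin-associated protein of pluripotent cells, fell by 2.29 on the log2 scale (SE 0.18, edgeR adjusted p = 6.18e-05), and ST6GAL1, a sialyltransferase, fell by 1.56 (SE 0.20, edgeR adjusted p = 0.000712).

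In the pluripotent-marker cells 7 of 15 tested naive genes were higher than in hESC and 0 lower (median 1.23, against -0.01 for all genes). At an unadjusted p under 0.05 edgeR gave 2 lower, and DESeq2 also called 7 higher and 0 lower. TFAP2C was at 19.6 and 40.7 against 7.46 and 5.75 CPM (2.32 ± 0.31, edgeR adjusted p = 4.04e-06) and CBFA2T2, a transcriptional corepressor, at 35.3 and 36.7 against 15.4 and 14.4 CPM (1.23 ± 0.23, edgeR adjusted p = 0.0004). Much of the naive set was at or near the limit of counting: 6 of the 24 genes had at most 3 UMIs in each of the 4 sums, and DPPA3 had 0 and 2 UMIs, DPPA5 1 and 7, and ARGFX and OOEP 0 and 0 in the blastoid cells. A count of 3 UMIs, used here as the floor of counting, was 5.89 CPM in blastoid 3 and 2.40 CPM in blastoid 4. DPPA3, DPPA5, ARGFX and OOEP were themselves at only 0.891 to 2.83 CPM in the hESC with 3 markers. A fall of genes this low could hardly be called, so the 0 lower does not show that none fell. Within the blastoids 8 of 13 were higher in pluripotent-marker cells and 2 lower, TBX3 and TET2. Between epithelial-marker and mesenchymal-marker cells 4 of 11 were higher and 5 lower (2 and 1 by DESeq2), TFAP2C rising most (4.49 ± 0.18, edgeR adjusted p = 6.72e-127).

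Of 22 primed genes, 20 were lower and 0 higher in whole blastoid samples (median -2.65; 0 higher also by DESeq2 and at an unadjusted edgeR p under 0.05, and 1 without blastoid 4), and 16 were lower and 2 higher in pluripotent-marker cells than in hESC (median -1.30). ZIC2, a zinc finger factor of primed cells, was at 3.93 and 3.99 against 195 and 214 CPM (-5.73 ± 0.30, edgeR adjusted p = 4.55e-13), and SFRP1, a secreted WNT modulator, at 11.8 and 9.58 against 649 and 744 CPM (-6.14 ± 0.25, edgeR adjusted p = 3.45e-15). OTX2, a homeobox factor, had 0 UMIs in both blastoid sums and 25.2 and 27.5 CPM in hESC. UTF1, a chromatin protein, was among those that went the other way, rising by 1.74 ± 0.16 (edgeR adjusted p = 1.32e-08). Within the blastoids 14 of 21 primed genes were higher in pluripotent-marker cells and 4 lower, with UTF1 at 153 and 197 against 1.16 and 1.78 CPM. Between epithelial-marker and mesenchymal-marker cells 4 of 19 were higher and 8 lower (2 and 3 by DESeq2).

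Of 11 other KLF genes, 7 were higher and 1 lower in whole blastoid samples (median 0.54), against 4 and 0 by DESeq2 and 3 and 0 without hESC 1. KLF6, a zinc finger factor induced by injury and stress, was at 128 and 193 CPM against 18.5 and 16.0 CPM in hESC (3.096 ± 0.250, edgeR adjusted p = 7.68e-05). It fell by 1.49 in pluripotent-marker against other blastoid cells (SE 0.15, edgeR adjusted p = 2.53e-21) and rose by 1.32 ± 0.08 in epithelial-marker against mesenchymal-marker cells (edgeR adjusted p = 5.75e-56). In these 2 comparisons 2 of 11 rose and 2 fell each (DESeq2 called 0 and 1 in the former and 2 and 0 in the latter). These counts were near the shares of all genes called there. Against hESC the pluripotent-marker cells had 4 of 9 higher and 0 lower by edgeR, 0 being lower also at an unadjusted p under 0.05, and 2 and 0 by DESeq2. Genes induced by cell dissociation moved with KLF4 and KLF5 in some comparisons and against them in another. The whole list of 11 (FOS, FOSB, JUN, JUNB, EGR1, ATF3, IER2, DUSP1, HSPA1A, HSPA1B and ZFP36) was higher in whole blastoid samples by edgeR and DESeq2 (median 2.21). Of the 11, 6 were higher in pluripotent-marker cells than in hESC (4 by DESeq2, 2 without hESC 1 or without hESC 2), and 10 were higher in epithelial-marker than in mesenchymal-marker cells (8 by DESeq2; median 1.53). In pluripotent-marker against other blastoid cells 9 were lower (4 by DESeq2 and 4 without the replicate block; median -1.05), where the fitted values of KLF5 and KLF4 were above 0. In none of the 4 comparisons did edgeR or DESeq2 give a listed gene the opposite call, also at an unadjusted p under 0.05. JUN, for example, was at 6.01 and 6.16 CPM in hESC and 224 and 345 CPM in blastoids. Their part in the values of KLF4 and KLF5 was not tested.

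LIF and STAT3 signalling maintains the naive network in mouse cells, with LIFR and IL6ST as receptor chains and SOCS3 as a feedback inhibitor. Of 9 such genes 5 were higher and 2 lower in whole blastoid samples (3 and 2 by DESeq2), IL6ST at 309 and 165 against 7.93 and 6.91 CPM (4.85 ± 0.30, edgeR adjusted p = 2.23e-05) and STAT3 at 36.4 and 29.4 against 50.3 and 54.2 CPM (-0.80 ± 0.14, edgeR adjusted p = 0.00235). IL6ST was at 62.8 and 47.9 CPM in pluripotent-marker cells and 317 and 174 CPM in the other blastoid cells, and SOCS3 had 0 and 1 UMIs in the former against 13.1 and 14.4 CPM in the latter. Pluripotent-marker cells had 2 of 8 higher and 4 lower than other blastoid cells (0 and 3 by DESeq2), and 3 of 9 higher and 1 lower than hESC (1 and 0 by DESeq2). Epithelial-marker cells had 2 of 8 higher and 2 lower than mesenchymal-marker cells, near the 25.2% and 24.1% of all genes called there.

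FGF receptors and ERK response genes, the receiving side of FGF4, were mostly lower in blastoids, 7 of 12 lower and 2 higher (median -0.76). ETV4, an ETS factor induced by FGF, was at 47.4 and 56.6 CPM in hESC and 10.8 and 9.15 CPM in blastoids (-2.52 ± 0.15, edgeR adjusted p = 2.2e-05). Within the blastoids ETV4 was at 68.7 and 71.9 CPM in pluripotent-marker cells against 8.76 and 4.50 CPM in the others (3.55 ± 0.25, edgeR adjusted p = 9.91e-43), with 5 of 12 higher and 3 lower (3 and 3 by DESeq2). DUSP6, an ERK phosphatase that also stands on the primed list, went the other way there, at 1.96 and 12.0 against 58.8 and 32.7 CPM (-2.14 ± 0.30, edgeR adjusted p = 2.84e-11). Against hESC the pluripotent-marker cells had 1 of 12 higher and 5 lower (0 and 2 without blastoid 4), and FGFR1 was at 55.0 and 55.9 against 181 and 197 CPM (-1.82 ± 0.18, edgeR adjusted p = 3.46e-08). Epithelial-marker cells had 2 of 12 higher and 7 lower than mesenchymal-marker cells (0 and 2 by DESeq2), FGFR2 at 48.2 and 50.01 against 150 and 125 CPM (-1.33 ± 0.11, edgeR adjusted p = 2.14e-34).

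NLRP2, the relative of NLRP7 with a place in the oocyte subcortical complex, was called in all 4 comparisons. It was at 92.3 and 79.1 CPM in pluripotent-marker cells, 22.5 and 25.05 CPM in other blastoid cells (1.83 ± 0.18, edgeR adjusted p = 4.03e-22) and 39.2 and 45.1 CPM in hESC with 3 markers (0.93 ± 0.17, edgeR adjusted p = 0.000271). Between epithelial-marker and mesenchymal-marker cells it was at 44.3 and 41.1 against 16.8 and 13.5 CPM (1.63 ± 0.16, edgeR adjusted p = 1.19e-22). Of this list of 7 genes only 2 or 3 were tested in a comparison, 3 of 3 being lower in whole blastoid samples (1 of 3 without hESC 1) and 1 higher in each of the other comparisons.

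Some markers of other cell types were counted in the pluripotent-marker cells of the blastoids, and others were at 0. The 8 mesenchymal markers summed to 251 and 272 CPM there, with none at 0, against 69.2 and 72.6 CPM in hESC (4 of 8 at 0) and 4496 and 3742 CPM in mesenchymal-marker cells. The 8 epithelial markers summed to 432 and 530 CPM, with 1 and 0 at 0, against 391 and 378 CPM in hESC and 2146 and 2017 CPM in epithelial-marker cells. The 6 endothelial markers summed to 110 and 79.9 CPM with 5 and 4 at 0, against 54.2 and 51.2 CPM in hESC. The 6 hypoblast and endoderm markers summed to 7.85 and 3.19 CPM with 3 and 3 at 0, against 1.19 and 2.20 CPM in hESC. The 6 neural markers summed to 400 and 453 CPM with 1 and 1 at 0. Their sum was 200 and 215 CPM in hESC and 385 and 616 CPM in epithelial-marker cells. Their part in the members' levels was not tested.

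The genes most like each member were taken over 8 sums (2 of hESC and 3 groups of each blastoid sample) by Pearson's r of log2 CPM among 10027 genes. The sums share libraries and groups, and r ran from 0.96 to 0.99. SHTN1 (r = 0.99), ZBTB38 and TFAP2A were nearest to KLF4, of which TFAP2A is an epithelial marker of the grouping. SERPINB9 (0.98), SLC25A16 and TPD52L2 were nearest to KLF5, with SERPINB9 at 15.3 and 13.4 CPM in hESC and 528 and 613 CPM in pluripotent-marker cells. PLEKHB2 (0.99), SIGIRR and EDNRB were nearest to TFCP2L1, and PERP (0.99), APP and ID1 to SUSD2, with ID1 at 935 and 1048 CPM in epithelial-marker cells. REST (0.97), NSMAF and HEATR5A were nearest to FGF4, F3 (0.97), CEMIP2 and DIAPH1 to NLRP7, and ARHGEF19 (0.99), CCNC and SHANK2 to ZFP42. GJA1 and LMNB1 were among the nearest to VENTX.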

How the data were processed

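The deposited tables hold raw UMI counts per gene and cell barcode, 1 table per sample, made by the authors from 10x Chromium 3′ v3.1 libraries per the labels' protocols. Cell Ranger and GRCh38 are named in the submitters' processing notes, without version or role. Depth in kept cells (at least 500 genes) was 13488703, 15913590, 15227582 and 18139535 UMIs. The members, the gene lists and the marker sets were chosen with earlier results of these data known.

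UMIs were summed per sample and cell group (rule markers, 3 or more of 5; lineage markers, 3 or more of 8) and fitted with edgeR 4.0.16 (quasi-likelihood, TMM, filterByExpr, R 4.3.3) with Benjamini-Hochberg adjustment over all genes, called at an adjusted p under 0.05. The sample was a block within blastoids, since both sums come from the same library, which leaves 1 pair per sample. SE is the size of the log2 fold change divided by the square root of F. CPM uses total UMIs. The test was tried on simulated data. Scrublet (scanpy 1.11.5, expected rate 6%) called 68 of 9680 cells as doublets, which were kept and left out in an alternative. Intervals are exact 95% Poisson, binomial or ratio limits and cover counting error only. Of each list, the called genes with the 3 largest rises and 3 largest falls could be named (mean log2 CPM 3 or more), and some of these are given. The nearest genes are the 3 with the highest r. The alternatives were DESeq2 1.42.0, scaling, filters, doublets, shared barcodes, marker limits, thinning (2000 or 1000 UMIs), the block and each sample left out. Values of some genes that the naming rule selected are not reported here.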

Additional observations from a re-analysis of the deposited data

Results flagged for a closer look

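The level of VENTX in cells with at least 3 of the 5 pluripotency markers was above that of the other cells in both blastoid samples and below it in both hESC samples. The log2 ratio was -0.656 in hESC 1 and -0.321 in hESC 2, and 2.50 in blastoid 3 and 3.02 in blastoid 4. In hESC the 95% counting intervals overlapped, 2.17 to 4.38 against 2.63 to 8.44 CPM in hESC 1 and 3.78 to 6.35 against 3.87 to 9.34 CPM in hESC 2, so no difference within hESC is shown. The difference between the groups was not tested.

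Barcodes with fewer than 500 genes, which entered no comparison, also held members. In blastoid 3 they had 8 UMIs of KLF5 (17.6 CPM) and 5 UMIs of NLRP7 (11 CPM), above the level in such hESC barcodes. Of the 1198 such barcodes of blastoid 3, 1035 were also barcodes of blastoid 4, and these held 4 of the 8 and 4 of the 5 UMIs.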

How the results depend on the processing

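Counts of called genes moved most. In blastoid against hESC 8227 genes were called, and 4424 to 10033 with 1 sample left out (lowest without hESC 1, 5038 without hESC 2), where the lone sample is assumed to vary like the other group. In pluripotent-marker blastoid against hESC cells 3064 were called, 1471 by DESeq2 and 1144 to 3318 with 1 sample left out (1144 without hESC 1, 1472 without hESC 2, 1795 without blastoid 4). Within blastoids, pluripotent-marker against other cells gave 4408 calls, 1610 by DESeq2 and 2059 with no replicate block, and epithelial-marker against mesenchymal-marker cells 6986, 2918 by DESeq2 and 3991 with no replicate block. Leaving out a blastoid sample there leaves no residual degree of freedom, so only values were computed. No paired analysis was possible because hESC and blastoid samples share no replicate number. With library size as the only scaling 39.5% of calls in the epithelial comparison were higher, against 51.1%. Of 335 values of members under alternatives, 309 were counted as the same and 25 moved by more than the spread between samples. Another 1 lost its call (VENTX under DESeq2), and 0 called values reversed. Same means an unchanged call where the epithelial comparison was tested, at any size, and elsewhere a shift within that spread. A value near 0 could thus change side and still be counted as the same. TFCP2L1 in blastoid against hESC was -0.62 without blastoid 4. Members detected in a larger share of cells of both blastoid than of both hESC samples numbered 4 after thinning to 2000 UMIs, too few UMIs to read an order for any but KLF5, and 8 unthinned. Pairs found together more often than their shares predict in both blastoid samples numbered 0, 1 with cells thinned to 1000 UMIs and 7 unthinned. Without the low copies of shared barcodes 8224 and 3040 genes were called in the comparisons with hESC. Depth limits NLRP7 and TFCP2L1, with 18 and 19 UMIs in blastoid 3.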
